A study of Mus musculus with 96 samples.

Results

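The 15 Mb of mouse chromosome 4 from 90 to 105 Mb (chr4:90000001-105000000, build mm9) held 4988 of the 48320 HindIII fragments of the chromosome. A fragment was a member when its end, as given in the count files, lay between these limits. No measured value entered that rule, but the region was chosen with earlier results of these data known. The region ended 43.0 Mb before the nearest viewpoint and began 65.6 Mb before the farthest, so position in the region and distance from the viewpoints cannot be told apart. It was cut into 30 steps of 500 kb, which overlapped 80 annotated protein-coding genes in all. The genes with the most fragments were Dab1, Pde4b, Nfia, Fggy and Ror1.

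PE-4Cseq is a chromosome conformation capture assay in which chromatin is cross-linked, cut with HindIII and ligated, and the fragments joined to a chosen viewpoint are read by paired-end sequencing. The cells were mouse embryonic fibroblasts (MEFs), taken at day 13.5 from embryos of chimeric males with 129S5/SvEvBrd cells and C57BL/6J females, and used when confluent at passage 4. Lines E71 and E98 carried the engineered 4E2 deletion on the 129S5 copy, which is called Df, and an intact C57BL/6J copy, which is called +DBl6. Lines E117 and E118 had no deletion, and their copies are called +129 and +Bl6. A single-base difference in the viewpoint read was used to tell the copies apart. Each group held 2 lines, whose embryos and litters the sources used here do not describe, so that errors and p-values below measure the spread between these lines alone. The 12 viewpoints, all on chromosome 4, are named by their place in Mb, and those from 150.4 to 153.9 lie inside the segment missing from Df, so that Df was described only at 147.9, 148.9, 154.9 and 155.5.

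Chromatin of one kind tends to lie near chromatin of the same kind. In mammalian nuclei, gene-rich segments with open chromatin and gene-poor segments, which often lie at the nuclear lamina, form separate compartments, and contacts over very long distances mostly follow this division. A contact at such a distance is rare, so a 4C library holds only a small sample of them and the number of different fragments captured is steadier than the number of reads, which PCR inflates.

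Of the 80 libraries this selection covers, 78 were used, namely 8 of Df, 23 of +129, 24 of +DBl6 and 23 of +Bl6, with 64058 to 3969613 chromosome 4 reads each. The +129 and +Bl6 libraries of E117 at viewpoint 153.9 held 444 and 1255 reads and were not used. Libraries from different lines that repeat the same molecules were found at some viewpoints. At 150.9, 152.1, 152.4 and 152.9 the +DBl6 libraries of E71 and E98 had log reads at shared distant fragments correlated above 0.9, as had the +129 and the +Bl6 libraries of E117 and E118 at 153.4, and such a pair is 1 sample. Weaker sharing between deletion and control lines was found at 153.9 and 154.9, so both were left out of the pooled comparisons of deletion with control lines. The comparison of +129 with +Bl6 left out 153.4 and 153.9. Where libraries repeat the same molecules, the lines that hold them are not independent, and an SD over 4 lines then rests on fewer distinct samples.

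The sequences at the ends of the 5 fragments of the region captured in the most libraries are shown first, because every count below is a count of reads that matched such ends. Each line gives 30 bases of the plus strand of NCBIM37 (mm9), 5′ to 3′, at the start or the end of a fragment, with the HindIII site in capitals. The count files sum both ends, so the end that was read is not known.
BC042782 fragment, start: AAGCTTttgaaatgtgtccactgagataca
BC042782 fragment, end: tgcaggttatgtgaactgtgaatgAAGCTT
Pde4b fragment, start: AAGCTTttacggagtatattatttgtacag
Pde4b fragment, end: tcttaaattaacacccagaatgctAAGCTT
Wdr78 fragment, start: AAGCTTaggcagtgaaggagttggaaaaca
Wdr78 fragment, end: gacactaattctcaaaattaactaAAGCTT
Itgb3bp fragment, start: AAGCTTcttaggagcaggaaggatgggact
Itgb3bp fragment, end: tttgcatttgttgggattattattAAGCTT
fragment before Usp1, start: AAGCTTgaatctaatgcgattttgatactt
fragment before Usp1, end: catagacatccacccgttatgaatAAGCTT

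A fragment was taken as captured in a library when it had at least 1 read. The BC042782 fragment (chr4:94830791-94834136), which overlaps an exon of a plus-strand processed transcript, and the Pde4b fragment (chr4:101879576-101882842), inside an intron of a cyclic AMP phosphodiesterase gene, were each captured in 26 of 78 libraries. The Wdr78 fragment (chr4:102777986-102779756) and the Itgb3bp fragment (chr4:99470207-99473547) lie in introns, and the fragment before Usp1 (chr4:98560318-98567434) lies 23.1 kb before that gene. These 3 were captured in 25 libraries each. The BC042782 fragment was captured from 8 viewpoints and from every chromosome, in 2 libraries of Df, 9 of +129, 6 of +DBl6 and 9 of +Bl6. The fragment before Usp1 had a median of 3 reads where it was captured, and the BC042782 fragment a median of 18. Even the most recurrent fragments were thus absent from most libraries.

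Reads and libraries gave different pictures of the Wdr78 fragment. It had 16117 reads in the +DBl6 library of E98 at 152.4, which was 20.0% of that library's reads in the region, and 9203 reads, or 18.9%, in the +DBl6 library of E71 at the same viewpoint. These libraries are among those that repeat the same molecules. Of its 25 libraries, 14 held a single read of it and 5 held at least 100. The start of this fragment did not match a unique place in the genome, whereas its end did.

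On the other chromosomes the fragments with the most reads lay elsewhere. On Df it was a fragment 17.9 kb before Usp1 (chr4:98569169-98572625), with 736 reads in E98 at 147.9. On +129 it was a fragment between Gm12689 and Foxd3 (chr4:99054536-99059668), with 1732 reads in E118 at 152.4. On +Bl6 it was a fragment 517 kb before Elavl2 (chr4:90397633-90400286), and its 5252 reads in E117 at 154.9 were 59.9% of that library's reads in the region. For each of these fragments 1 library held the greater part of its reads.

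Over the whole region, 27275 captures and 1093275 reads were counted in the 78 libraries. Of the 4988 fragments, 4270 were captured at least once, 441 in 1 library and 45 in at least 20. Another 718 were never captured, and 176 of these were among the 203 fragments without a 30-base end that is unique in the genome. A single read made up 24.7% of the captures, and 52.7% had at least 5 reads. Fragments of up to 1 kb were captured at 0.97 times the level beyond 20 Mb, and those of 1 to 3 kb, 3 to 6 kb and over 6 kb at 1.14, 1.15 and 1.09 times.

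A library captured from 37 to 743 fragments of the region, with a median of 386, or 0.742% to 14.9% of its fragments. To set libraries of different depth on 1 scale, the captured share of the region was divided by the captured share of all fragments more than 20 Mb from the same viewpoint, and this ratio is meant by "level" in the following. It was 0.995 in E71, 1.01 in E98, 1.10 in E117 and 1.14 in E118, with a mean of 1.06 ± 0.069 (SD, n = 4 lines). The values lay on both sides of 1 (exact two-sided sign-flip permutation test over 4 lines, p = 0.25), and the test cannot reach 0.05, since the smallest p that 4 lines allow is 0.125. In reads the mean was 1.12, with all 4 lines above 1. With fragments more than 40 Mb away as the reference the mean was 1.51. At viewpoints with no shared libraries it was 1.01, and with only fragments that have a unique end 1.03. The deletion lines had the lower 2 values, and they have no 129S5 copy at the viewpoints inside the missing segment.

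The region sat on a slope along the chromosome. The 15 Mb before it had a level of 0.746 ± 0.048 and the 15 Mb after it 2.13 ± 0.053 (SD, n = 4 lines each), and these windows overlapped 69 and 198 protein-coding genes against 80 in the region. In every line the 3 windows came in the same order.

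Within the region, the first 4 Mb and the other 11 Mb stood apart (a division made after the values were seen, and given without a test). From 90 to 94 Mb the 1373 fragments had a level of 0.56 in E71, 0.522 in E98, 0.574 in E117 and 0.608 in E118. From 94 to 105 Mb the 3615 fragments had a level of 1.16 in E71, 1.20 in E98, 1.30 in E117 and 1.34 in E118. No line of the first set reached any line of the second. The first 4 Mb held few genes: Elavl2, which encodes a neuronal RNA-binding protein, Izumo3, Gm12666 and Tusc1.

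**Figure D1:**
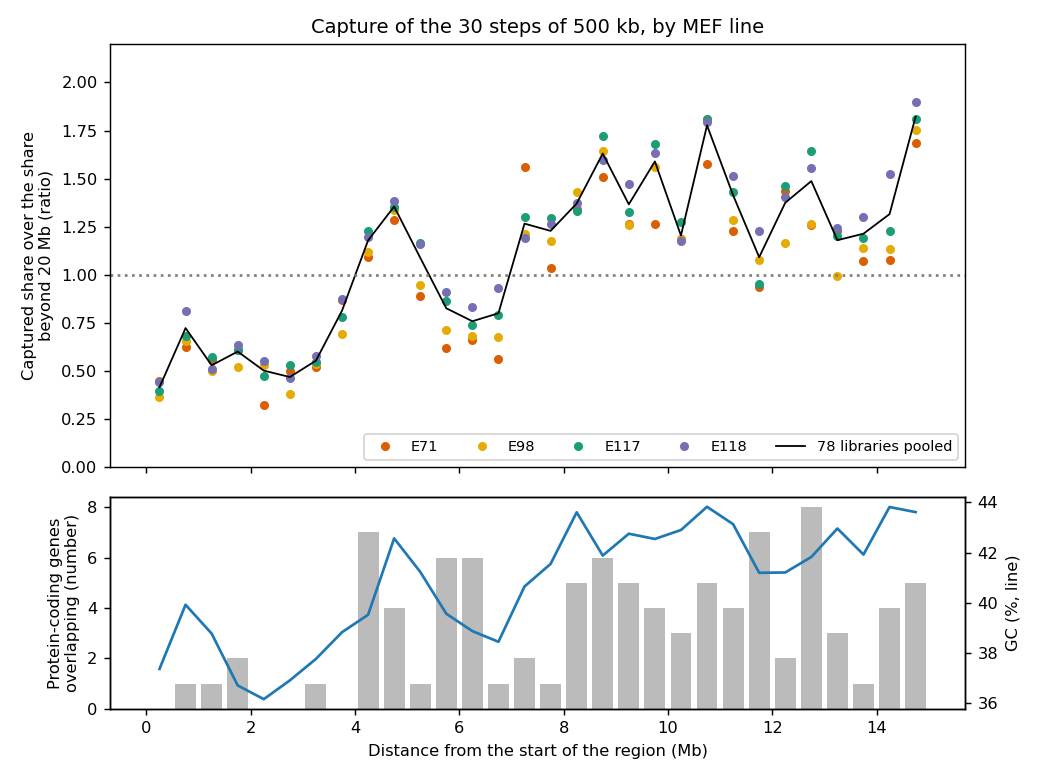
Level of each 500 kb step (captured share divided by the captured share beyond 20 Mb, upper panel) against distance from the start of the region in Mb, with 1 point per MEF line and a line for the 78 libraries pooled; the dotted line marks 1. The lower panel gives the number of protein-coding genes that overlap each step (bars) and its GC percent (line); the first 8 steps lie below 1 in all lines, and the last step has the highest pooled level, 1.82.

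By steps, 16 of 30 had a level above 1 in all 4 lines (53.3%, where 25.3% of the 249 steps beyond 20 Mb from every viewpoint did) and 11 were below 1 in all 4 lines (36.7%, where 64.3% of all steps were). The highest level was that of the step chr4:104500001-105000000, with 1.69 in E71, 1.75 in E98, 1.81 in E117 and 1.90 in E118. It overlaps C8a, a gene of the terminal complement complex, Prkaa2, which encodes a catalytic subunit of AMP-activated protein kinase, and Ppap2b, which encodes a lipid phosphate phosphatase. The next was chr4:100500001-101000000, with 1.58 in E71 and 1.81, 1.81 and 1.80 in E98, E117 and E118. Its genes include Jak1, a tyrosine kinase of cytokine receptors, Cachd1 and Raver2.

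The third was chr4:98500001-99000000, with 1.51 in E71, 1.64 in E98, 1.72 in E117 and 1.60 in E118. Usp1, a deubiquitinating enzyme of DNA repair, and Atg4c, an autophagy protease, lie there. Each of these 3 steps exceeded 1.5 in every line. The 3 lowest were chr4:90000001-90500000 with a mean of 0.413 ± 0.041, chr4:92500001-93000000 with 0.469 ± 0.066 and chr4:92000001-92500000 with 0.471 ± 0.10 (SD, n = 4 lines each). No protein-coding gene overlaps any of these 3 steps, which make up 3 of the 4 such steps of the region.

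Among the first 8 steps the highest was the last, starting at 93.5 Mb, with 0.805 ± 0.086. It is the remaining step of the region that no protein-coding gene overlaps. The step starting at 90.5 Mb, which holds part of Elavl2, followed with 0.692 ± 0.082 (SD, n = 4 lines each). A second low stretch lay at 95.5 to 97 Mb, where 3 steps had pooled levels of 0.826, 0.759 and 0.800. Here lie Hook1, a microtubule adaptor, and the Cyp2j genes, a cluster of cytochrome P450 genes for fatty acid oxidation. To its left, beyond the step of Fggy, the step of Jun, a subunit of the AP-1 transcription factor, and Mysm1, a histone deubiquitinase, had 1.34 ± 0.040. To its right the step with the start of Nfia, a transcription factor of the nuclear factor I family, had 1.32 ± 0.17 (SD, n = 4 lines each).

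The level of a step went with its base composition. Over the 30 steps, GC content ran from 36.2% to 43.8% and its correlation with the pooled level was r = 0.90 (Spearman 0.85), while over all 249 steps beyond 20 Mb it was 0.68 (Spearman 0.70). The correlation with the number of overlapping protein-coding genes was 0.59 (Spearman 0.61) and with position in the region 0.79 (Spearman 0.77). These are descriptions: the steps share all their libraries, and GC content, gene number and position move together here. Only fragments with a unique end gave the same pattern, and no step crossed 1 with that choice.

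In reads, 1 of the 30 steps crossed 1. The step starting at 102.5 Mb had a level of 2.25 in reads against 1.49 in captured fragments, and the step starting at 101.5 Mb 1.73 against 1.09. A single fragment held 19.9% and 23.0% of all reads of these steps. The lowest step in reads was the one starting at 92 Mb, with 0.321. The step starting at 95 Mb, with Fggy, was the one that crossed, at 0.914 in reads and 1.09 in captured fragments.

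Fragments that overlap protein-coding genes were captured more often than those between them. There were 2343 of the former (47.0%) and 2645 of the latter, and the captured share inside genes over that between genes was 1.43 in E71, 1.57 in E98, 1.52 in E117 and 1.51 in E118, a mean of 1.51 ± 0.056 (SD, n = 4 lines). It was above 1 in 4 of 4 lines (exact two-sided sign-flip permutation test, p = 0.125, the smallest that 4 lines allow). Over all fragments of the steps beyond 20 Mb the same quotient was 1.86. Both kinds of fragment were unevenly spread. Of the 1373 fragments from 90 to 94 Mb, where the level was low, Elavl2 overlapped 64, Izumo3 4, and Gm12666 and Tusc1 1 each. The quotient was not computed from 94 to 105 Mb alone, so it does not tell genes and position apart.

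Of the 32 protein-coding genes with at least 20 fragments, 22 were above 1 in all 4 lines and 4 below 1 in all 4 (68.8% and 12.5%, where 38.4% and 35.8% of 190 such genes beyond 20 Mb from every viewpoint were). In the list of receptor and signalling genes, 8 of the 10 with at least 20 fragments were above 1 in all lines and none below, with a median level of 1.70 against 1.30 over all 32. Jak1 had 2.36 ± 0.29, Ppap2b 2.15 ± 0.24 and Prkaa2 1.91 ± 0.28. Ror1, a receptor for Wnt5a, had 1.70 ± 0.23. Tek, the angiopoietin receptor of endothelial cells, and Lepr, the leptin receptor, had 1.05 ± 0.14 and 1.11 ± 0.22, with lines on both sides of 1 (SD, n = 4 lines for each gene).

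Among the regulators of transcription and RNA, Nfia had 1.27 ± 0.090 and Raver2 1.35 ± 0.20, both above 1 in 4 of 4 lines, and Elavl2 had 0.758 ± 0.074, below 1 in 4 of 4. Jun and Foxd3, a transcription factor of early embryo and neural crest, overlapped 1 fragment each, too few for a level. In the list of trafficking, metabolism and housekeeping genes, 7 of 10 were above 1 in all lines and 1 below. Kank4 was the highest with 2.22 ± 0.25, Itgb3bp, a centromere protein gene, had 1.22 ± 0.13, and Hook1 was the one below with 0.681 ± 0.17 (SD, n = 4 lines for each gene). Of the 3 Cyp2j genes with enough fragments, 2 were below 1 in all lines, Cyp2j13 with 0.390 ± 0.16 and Cyp2j8 with 0.728 ± 0.20, and Cyp2j12 had 1.02 ± 0.11 (SD, n = 4 lines each). The complement genes C8a and C8b had 19 and 15 fragments and were not described by a level per line.

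The level of the region depended on the viewpoint. At 147.9, 148.9 and 154.9, none of the 8 libraries of each viewpoint had a level above 1. The lowest, median and highest library had 0.725, 0.963 and 0.993 at 147.9, 0.648, 0.749 and 0.841 at 148.9, and 0.666, 0.810 and 0.943 at 154.9. At 155.5, 5 of 8 were above 1, between 0.857 and 1.08. At 150.9, 151.6, 152.1, 152.4, 152.9 and 153.4 every library was above 1, and the medians of 152.1 and 152.4 were 1.33 and 1.29. The highest single library was +129 of E117 at 152.4, with 1.64.

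**Figure D2:**
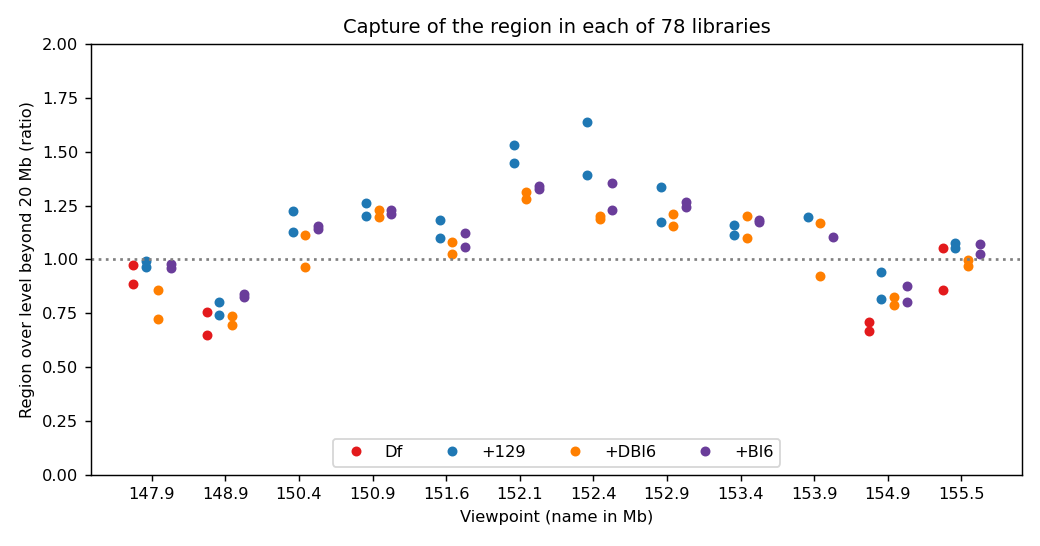
Level of the region (captured share over the captured share beyond 20 Mb) in each of 78 libraries by viewpoint, with Df, +129, +DBl6 and +Bl6 in separate colours, 1 point per library. All points of 147.9, 148.9 and 154.9 lie below the dotted line at 1 and all of 150.9 to 153.4 above it, and Df has points at 4 viewpoints.

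The 12 viewpoints also differ in their own surroundings. In the 500 kb around 147.9, 148.9, 150.4, 151.6, 153.4, 154.9 and 155.5 lie 8 to 22 protein-coding genes, and around 150.9, 152.1, 152.4, 152.9 and 153.9 lie 0 to 2. These 7 and 5 viewpoints are called gene-rich and gene-poor below. The split rests on the annotation, but it was made after the levels had been seen, so it is a description without a test, and Df libraries were left out of it. At gene-rich viewpoints the region had a level of 0.975 in E71, 0.998 in E98, 1.06 in E117 and 1.05 in E118. At gene-poor viewpoints it had 1.17 in E71, 1.24 in E98, 1.28 in E117 and 1.30 in E118, and the lines of both kinds did not overlap. Without Df, E71 and E98 have only +DBl6 libraries, which at 150.9, 152.1, 152.4 and 152.9 are 1 sample, so that at 4 of the 5 gene-poor viewpoints these lines are not separate replicates and the SDs given below for gene-poor viewpoints rest on fewer than 4 independent lines. In the control lines at viewpoints with no shared libraries, the means of 2 lines were 1.03 and 1.31. The captured share beyond 20 Mb, which divides both, was 7.91% at gene-rich and 4.79% at gene-poor viewpoints, and its part in the difference was not tested. Against the 3 gene-rich viewpoints inside the missing segment, the gene-poor level was 1.12 times as high.

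Both kinds of viewpoint captured different steps of the region. In 12 of the 30 steps all lines were higher at gene-poor viewpoints (40%, where 20.5% of all 249 steps were), and in 5 all lines were higher at gene-rich viewpoints (16.7%, where 25.3% of all steps were). With only the 2 control lines at viewpoints with no shared libraries these counts were 18 and 9 of 30. Lack of overlap is met more easily with 2 lines than with 4, and the share of all 249 steps was not computed for that setting. The correlation over the steps between the 2 kinds, pooled, was 0.39 (Spearman 0.49) in the region and 0.75 (Spearman 0.80) over all 249 steps. Within 1 line it was 0.38 in E71, 0.39 in E98, 0.30 in E117 and 0.40 in E118. Between lines, it was 0.92 to 0.98 at gene-rich viewpoints and 0.82 to 0.95 at gene-poor viewpoints, where the value of E71 with E98, 0.94, joins libraries that mostly repeat the same molecules. The lowest values of single pairs joined 152.1 with 147.9 and with 148.9, at -0.14 and -0.08. The viewpoints 150.9 and 153.9 stood between both kinds, and 153.9 was as close to the gene-rich 155.5 (0.84) as to the gene-poor 150.9 (0.83).

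**Figure D3:**
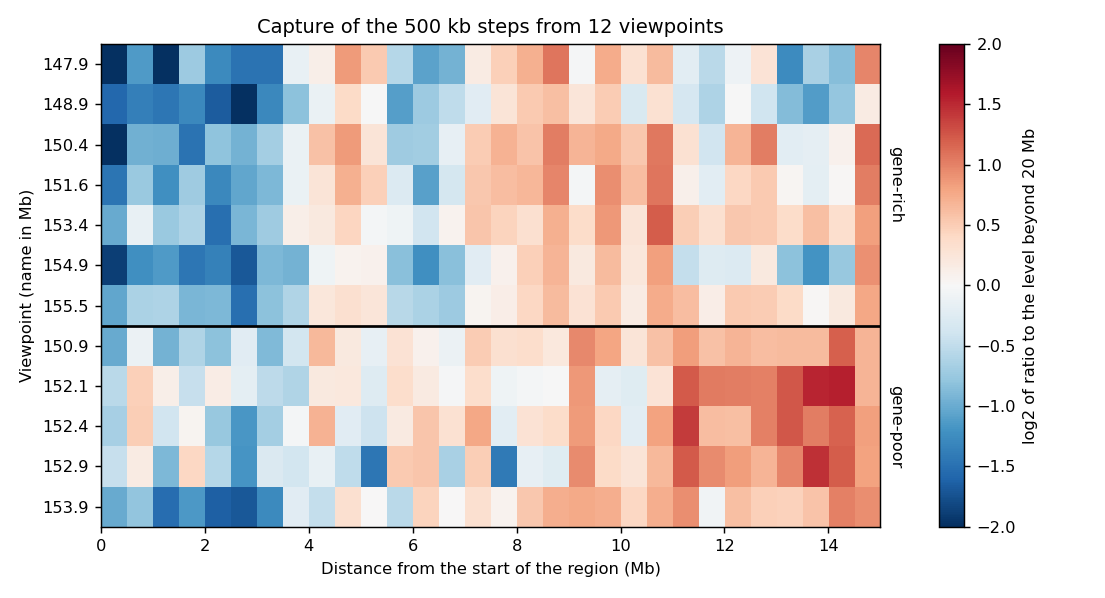
Level of each 500 kb step (colour, log2 of the ratio to the captured share beyond 20 Mb, red above and blue below it) from each of 12 viewpoints, with the 7 gene-rich viewpoints above the black line and the 5 gene-poor ones below it; the horizontal axis is the distance from the start of the region in Mb. From 11 to 14.5 Mb into the region the viewpoints 152.1, 152.4 and 152.9 are red where 147.9, 148.9 and 154.9 are mostly pale or blue.

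The steps that gene-poor viewpoints captured most were those of Lepr and of Dab1, which encodes an adaptor of reelin signalling (steps named here were chosen after their values were seen). The step chr4:104000001-104500000, with part of Dab1, C8b and C8a, had 0.912 ± 0.069 at gene-rich and 2.23 ± 0.45 at gene-poor viewpoints. The step chr4:103500001-104000000, wholly inside Dab1, had 0.868 ± 0.10 and 2.17 ± 0.23. The step chr4:101000001-101500000, with Ak4, an adenylate kinase, Dnajc6, an auxilin, Leprot and Lepr, had 1.11 ± 0.072 and 2.23 ± 0.32 (SD over the 4 lines, E71 and E98 sharing samples at gene-poor viewpoints). At single viewpoints the step starting at 104 Mb ran from 0.557 at 147.9 to 2.94 at 152.1, and the step starting at 103.5 Mb from 0.435 at 154.9 to 2.88 at 152.1.

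The Cyp2j step starting at 96 Mb also belonged to this set, with 0.574 ± 0.030 at gene-rich and 1.22 ± 0.21 at gene-poor viewpoints, so that the low level given above came from the gene-rich ones. The Elavl2 step starting at 90.5 Mb had 0.563 ± 0.085 and 1.13 ± 0.22. The opposite order was found at 94.5 to 95.5 Mb and at 97.5 to 99 Mb. There, the step of Usp1 had 1.82 ± 0.032 at gene-rich and 1.12 ± 0.13 at gene-poor viewpoints, and the step of Jun and Mysm1 1.47 ± 0.14 and 1.09 ± 0.11. The last step of the region, with Prkaa2 and Ppap2b, was high at both, with 1.88 ± 0.065 and 1.63 ± 0.14 (SD over the 4 lines, E71 and E98 sharing samples at gene-poor viewpoints), and its lines overlapped. Some steps were thus captured mainly from 1 kind of viewpoint, while others were captured from both.

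By genes, Dab1 had a pooled level of 0.866 at gene-rich and 2.17 at gene-poor viewpoints over 387 fragments, the most of any gene of the region. Dnajc6 had 1.04 and 2.61, Lepr 0.818 and 1.79, and Cyp2j8 0.482 and 1.64. In the other direction Jak1 had 2.61 at gene-rich and 1.35 at gene-poor viewpoints, Nfia 1.44 and 0.895, and Fggy, a carbohydrate kinase gene, 1.28 and 0.790. Kank4 and Prkaa2 were near 2 at both, with 2.21 and 1.95 for Kank4 and 2.02 and 1.95 for Prkaa2.

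**Figure D4:**
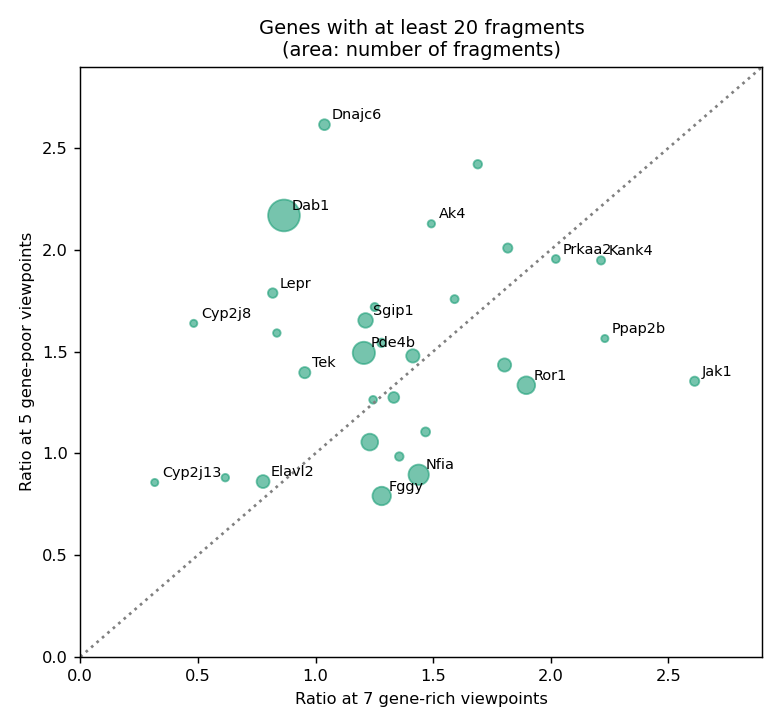
Pooled level of 31 protein-coding genes with at least 20 fragments at the 7 gene-rich viewpoints (horizontal) and the 5 gene-poor viewpoints (vertical), both as ratios to the captured share beyond 20 Mb without Df libraries; circle area follows the number of fragments and the dotted line marks equal values. Dab1 (0.866 and 2.17) lies far above the dotted line and Jak1 (2.61 and 1.35) far below it.

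Whether the deletion changed the capture of the region was asked on each copy. As a check of the labels, reads per 500 kb step were compared between Df and +129 at 147.9, 148.9, 154.9 and 155.5 with edgeR. Of 1108 steps tested over the 4 viewpoints, 20 (1.81%) passed an adjusted p of 0.05, all lower on Df, and 17 of these lay between viewpoints 150.4 and 153.9. None of the tests in the region passed, with 5 at an unadjusted p under 0.05 and a smallest adjusted p of 0.12 (edgeR). DESeq2 called 2 in the region, and 2.8% of all. With E71 paired to E117 and E98 to E118 by DNA purification kit, 1 was called, the step starting at 90 Mb seen from 154.9, which was lower on Df. At 154.9 the log reads of Df of E71 and +129 of E117 at shared distant fragments correlated at 0.68, and the read fits kept both. Over all libraries of 154.9 this step had a level of 2.17 in reads and 0.271 in captured fragments. Fits without 1 Df line leave a lone Df sample at each viewpoint, so their calls are not counted here.

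In captured fragments, the region had a level of 0.854 in E71 and 0.927 in E98 on Df, and 0.966 in E117 and 0.980 in E118 on +129, pooled over viewpoints 147.9, 148.9 and 155.5. Both Df lines lay below both +129 lines, and the mean of Df was 0.915 times that of +129. The exact two-sided permutation test of 2 lines against 2 gave p = 0.333, the smallest it allows, and so cannot separate the groups. At single viewpoints the quotient was 0.949 at 147.9, 0.908 at 148.9, 0.782 at 154.9 and 0.898 at 155.5. Without Df of E71 it was 0.952, and with the reference beyond 40 Mb 0.948. Distances were taken on mm9 for every copy. On Df, fragments before the missing segment are nearer to 154.9 and 155.5 than that by the length of the deletion. The part of this in the quotient was not tested. The depth differed: at these 3 viewpoints E71 captured 2.73% of the Df fragments beyond 20 Mb and E98 6.90%, against 6.10% and 7.65% on +129.

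On the copy that is intact in both kinds of cell, +DBl6 had a level of 0.986 in E71 and 0.972 in E98, and +Bl6 had 1.06 in E117 and 1.04 in E118, pooled over viewpoints 147.9, 148.9, 150.4, 151.6 and 155.5. The quotient was 0.935, again with both deletion lines below both control lines (exact two-sided permutation test, p = 0.333, the smallest possible). Over single viewpoints it ran from 0.817 at 147.9 to 0.995 at 150.9, and it was below 1 at each of 12. Among the viewpoints pooled above, its highest value was 0.964, at 151.6. At the other viewpoints some libraries share molecules, between lines of a group or between deletion and control lines. All 12 values come from the same lines, so they are not independent repeats. In reads the pooled quotient turned to 1.01. It was 0.970 with the reference beyond 40 Mb and 0.963 with at least 5 reads. In each of these settings deletion and control lines overlapped. Between the copies of the control lines, +129 over +Bl6 was 1.04 (exact two-sided permutation test, p = 0.667), with lines that overlapped between the copies. Both copies come from the same cells, a pairing that this test did not use, and within a line the quotient was 1.03 in E117 and 1.05 in E118. Its highest values at single viewpoints were 1.12 at 152.1 and 1.17 at 152.4.

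Step by step, edgeR on captured fragments called 0 of 30 steps of the region in each of the 3 comparisons (of all steps beyond 20 Mb, 0% of 217 for Df against +129, 0% of 244 for +DBl6 against +Bl6 and 1.22% of 245 for +129 against +Bl6). At an unadjusted p under 0.05 there were 1, 0 and 0 steps, and DESeq2 called 0 in each. The log2 fold change of Df over +129 had a median of -0.09 in the region and -0.00033 over all steps, and that of +DBl6 over +Bl6 -0.03 and -0.0065. For +129 over +Bl6 the medians were 0.07 and 0.0070. The median standard error of a step was 0.33, 0.20 and 0.15 on the log2 scale in the 3 comparisons.

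The 1 step with an unadjusted p under 0.05 was that of part of Dab1 and of C8b, starting at 104 Mb, which is named for that reason after its value was seen. On Df it had a level of 1.00 in E71 and 0.968 in E98, from 13 and 32 captured fragments, and on +129 it had 0.377 in E117 and 0.628 in E118, from 11 and 23. Both Df lines were above both +129 lines, with a log2 fold change of 0.95 ± 0.35 (SE) and an adjusted p of 0.965 (edgeR). In reads from 155.5 it had a log2 fold change of 2.43 ± 0.72 (SE) and an adjusted p of 0.12 (edgeR), and 0.0306 with DESeq2. Pooled over the 5 viewpoints of the other comparison, this step had 0.878 and 0.919 on +DBl6 against 1.04 and 1.03 on +Bl6. In the fit of all 4 copies at viewpoints 147.9, 148.9 and 155.5, the change of Df over +129 less that of +DBl6 over +Bl6 was 1.44 ± 0.48 (SE, log2) with an adjusted p of 0.999 (edgeR).

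Steps in which both lines of a group lay on 1 side of both lines of the other were counted as well. Df was below +129 in 8 of 30 steps (26.7%, where 17.7% of all 249 steps were) and above it in 2 (6.67%, where 13.3% were). For +DBl6 below and above +Bl6 there were 9 and 2 (30% and 6.67%, where 20.5% and 16.5% were), and for +129 above and below +Bl6 7 and 1 (23.3% and 3.33%, where 14.1% and 10.4% were). At the 4 viewpoints outside the missing segment the first 8 steps were below 1 on every copy, and the last step was at 1.51 on Df, 1.92 on +129, 1.67 on +DBl6 and 1.77 on +Bl6. The order of high and low steps was shared: over the 30 steps the correlation between 2 copies was 0.92 to 0.95. This is a description of steps that share position and base composition. The 4 viewpoints include 154.9, where log reads of Df of E71 and +129 of E117 at shared distant fragments correlated at 0.68. Those of +DBl6 of E71 and +Bl6 of E117 correlated at 0.72 there. Each line also gave 2 of the copies, so the copies are not independent.

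**Figure D5:**
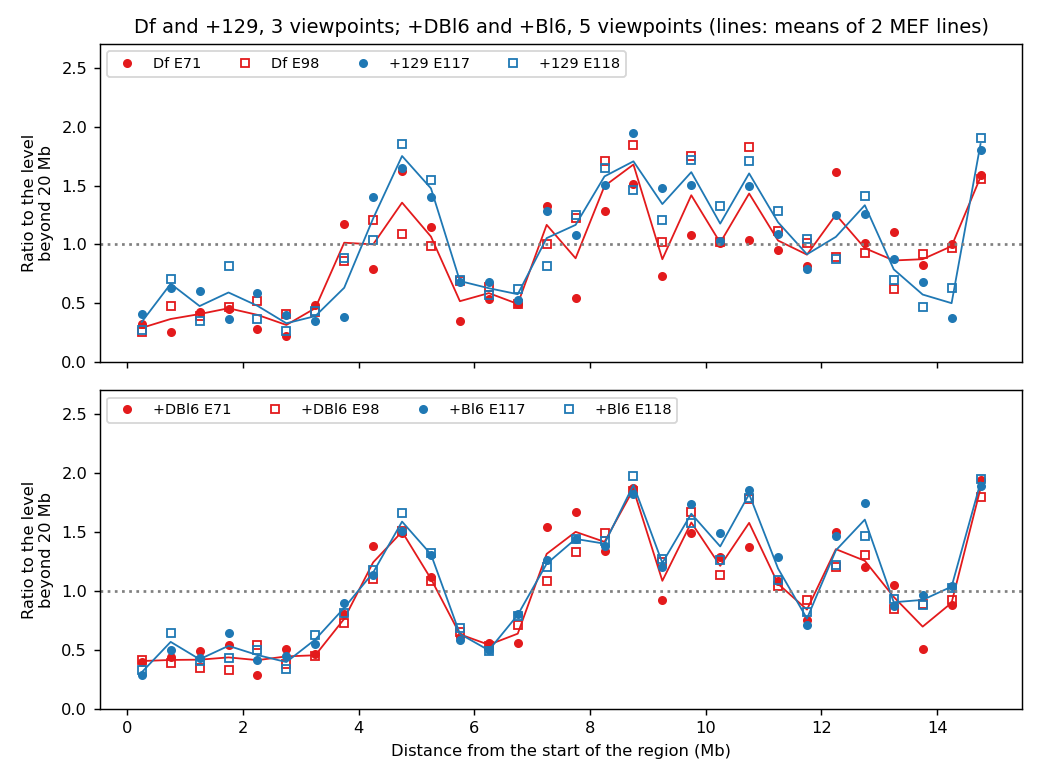
Level of each 500 kb step against distance from the start of the region in Mb, for Df and +129 pooled over 3 viewpoints (upper panel) and +DBl6 and +Bl6 over 5 viewpoints (lower panel), with 1 point per MEF line and lines through the means of 2 lines. The low start of the region and the higher later steps appear on all copies, and on Df the step starting 14 Mb into the region (1.00 and 0.968) lies above +129 (0.377 and 0.628).

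In reads per step at single viewpoints, edgeR as described made no call in the region for the other comparisons, whereas DESeq2 did for +DBl6 against +Bl6. Of 354 tests in the region for +DBl6 against +Bl6 none passed, with 29 at an unadjusted p under 0.05 and a smallest adjusted p of 0.0754 (edgeR, where 0.393% of all 3308 tests passed). DESeq2 called 13 of the 354, and 3.17% of all. Of these 13, 8 lay at 152.4 and 2 at 152.9, and 12 lay at viewpoints where 1 added-up +DBl6 sample was compared with 2 of +Bl6. Fits without 1 +DBl6 line leave a lone sample of that copy, so their calls are not counted here. For +129 against +Bl6 none of 354 passed, with 6 at an unadjusted p under 0.05 (edgeR, where 0% of 3308 passed; DESeq2 called 0 of the 354, and 0.0907% of all).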

How the data were processed

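The authors aligned the fragment-end reads with bowtie to sequences beside HindIII sites of mm9 and kept unique matches. They assigned alleles by a polymorphism in the viewpoint read and deposited raw counts per fragment. No molecular identifiers were used. Values after ± are SDs over MEF lines or, where marked SE, standard errors of a fit. Another 16 deposited tables list regions of the authors' own comparisons and were not used. Members and gene lists were chosen with earlier results of these data known. Fragments and genes were placed on NCBIM37 with GENCODE vM1. A level is a captured share (at least 1 read) over that beyond 20 Mb, pooled as the sum of captures over the sum expected. Libraries under 10000 reads were left out. Steps of 500 kb with at least 10 counts in 50% of columns entered the quasi-likelihood test of edgeR 4.0.16 (R 4.3.3; TMM, Benjamini-Hochberg over all steps, 0.05), tested on simulated data; captured fragments were pooled over viewpoints without shared libraries, with +129 against +Bl6 fitted on these 2 groups alone, and reads within 20 kb of a viewpoint left out. DESeq2 1.42.0 was an alternative. Replicate 1 (E71, E117) and 2 (E98, E118) differ in the DNA purification kit per the methods; deviations of same-numbered lines correlated at 0.02 for Df and +129, 0.01 for +DBl6 and +Bl6, and 0.49 for the copies of 1 line. Named were the 3 highest and lowest steps, up to 3 called steps, the 5 fragments in most libraries, the fragment with most reads per chromosome, and listed genes with at least 20 fragments. Some withheld items are not reported here.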

Additional observations from a re-analysis of the deposited data

Results flagged for a closer look

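Of 36 values looked at over the 4 MEF lines, 2 had 1 line far from the other 3, where chance flags about 1 in 20. In the step starting at 100 Mb, with Ror1, Ube2u and Cachd1, E117 stood above the others at 1.28, and in the step starting at 100.5 Mb, with Jak1, E71 stood below them at 1.58.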

How the results depend on the processing

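Of 75 alternative values of the region's levels and quotients and of the counts for the kinds of viewpoint, 71 kept their direction or stayed within 1.5 times. In reads, +DBl6 over +Bl6 turned to 1.01. The 5 steps higher at gene-rich viewpoints became 3 with at least 5 reads and 2 in reads. They became 9 in the 2 control lines alone, where lack of overlap is met more easily. This comparison and its alternatives were chosen after seeing the data. Counts of called steps in the region for reads, 0 in each comparison, became for Df against +129 2 with DESeq2 and 1 with the replicate block. For +DBl6 against +Bl6 they became 13 with DESeq2, 1 with total counts and 1 without a filter, and 0 to 4 without 1 line. The cause was not tested. Fits with a lone sample in a group assume that it varies like the others, and some fits at 153.4 and 153.9 could not be made. The replicate block moved the quotients of Df over +129, +DBl6 over +Bl6 and +129 over +Bl6 to 0.914, 0.935 and 1.04. It changed no other call among the fits made, which for reads of +DBl6 against +Bl6 and of +129 against +Bl6 were those at 6 of 12 viewpoints, since added-up libraries have no single replicate number. In captured fragments the count stayed at 0 under every alternative run. With 37 to 743 captured fragments per library, no single step of a single library could be read.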
